A study of Mus musculus with 44 samples.

Results

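The 10 genes described here encode the non-fibrillar interstitial collagen chains of mouse skin: the collagen VI chains Col6a1, Col6a2, Col6a3, Col6a5 and Col6a6, the collagen VIII chains Col8a1 and Col8a2, and the fibril-associated chains Col12a1, Col14a1 and Col16a1. They were chosen by name as beaded, network-forming and fibril-associated chains, and all 10 were found among the 43411 genes in the table of normalized counts. RNA was sequenced from the back skin of 44 wild-type female C57Bl/6 mice that were 8 weeks old at the start, in a model of systemic sclerosis in which bleomycin (100 µL at 1 U/mL) is injected under the skin every day. The groups were 10 mice given saline, 10 given bleomycin for 2 weeks, 10 given it for 4 weeks, and 6 and 8 mice left without injection for 6 and 10 weeks once 4 weeks of bleomycin had ended. The time at which the saline mice were killed is not given in the sources used here, so that recovery and age cannot be told apart. Each library came from a biopsy of whole skin of 1 mouse, and the injury is a local one at injected skin.

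Collagens are trimers of chains that carry repeats of glycine and a pair of other residues, which wind into a triple helix. Fibrillar collagens I, III and V build the thick bundles of the dermis, and the chains described here sit around and between them: collagen VI forms beaded microfibrils from Col6a1, Col6a2 and a longer partner chain, which is most often Col6a3 and can be Col6a5 or Col6a6. Collagen VIII forms hexagonal networks in vessel walls and under some endothelia. Collagens XII and XIV are held on fibrils through short helices, with large non-collagenous domains that reach into the space between them. Collagen XVI has a longer collagenous part and is found near fibrils and microfibrils, and dermal fibroblasts make most of these chains.

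Between 8509094 and 15285577 reads were recovered for each mouse. The groups overlapped in depth only in part, since saline mice had 8641894 to 12016214 reads and the mice at 10 weeks of recovery 11837496 to 13828614. The values are normalized counts, that is reads divided by one size factor per mouse. The mouse farthest from its own group was bleomycin 2-week mouse 2, with a median Pearson r of 0.938 with the other mice of the group over the genes tested, followed by saline mouse 1 at 0.942. The tissue label was checked with 6 keratinocyte genes, whose summed normalized count had a median between 169571 and 193316 in every group, and none of which passed the test in any comparison. A gene is called differentially expressed (DEG) at an absolute fold change above 1.5 (log2 0.585) and a Benjamini-Hochberg adjusted p below 0.05 over the 17037 genes tested with limma, and a log2 fold change is a difference of means of log2(normalized count + 1) with its standard error (SE).

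The pairs compared most closely below are related chains, and their coding sequences show what they share. The collagenous stretch of each chain reads as a run of codon triplets that begins with a glycine codon, and the first 54 bases of the longest such run are shown for the pairs Col8a1 and Col8a2, and Col12a1 and Col14a1, with Col6a1 for comparison. The sequences are from GENCODE M21 transcripts, in the order of the coding strand, and capitals mark the glycine codon that opens each triplet.
Col6a1: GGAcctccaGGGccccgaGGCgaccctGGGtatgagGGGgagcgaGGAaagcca
Col8a1: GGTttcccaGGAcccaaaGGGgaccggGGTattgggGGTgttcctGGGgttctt
Col8a2: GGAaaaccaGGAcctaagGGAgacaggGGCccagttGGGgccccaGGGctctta
Col12a1: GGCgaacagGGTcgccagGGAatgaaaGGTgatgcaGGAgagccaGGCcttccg
Col14a1: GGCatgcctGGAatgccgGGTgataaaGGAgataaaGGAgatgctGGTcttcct
The longest run held 87 triplets in Col6a1 and in Col6a2, and 45 in Col6a3. It held 60 triplets in Col8a1 and 59 in Col8a2, and 32 in both Col12a1 and Col14a1. Runs of 5 or more triplets took up 58.9% of the codons of Col8a1 and 63.5% of those of Col8a2, but 8.12% in Col12a1 and 13.8% in Col14a1, whose chains are mostly non-collagenous. Col6a1 and Col6a2 had 31.9% of their codons in such runs, whereas the longer Col6a3 had 12.3%.

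The stretches upstream of the collagen VIII genes are shown next because Col8a1 and Col8a2 are set against each other below. They are from RefSeq on build GRCm38.p6, the first at chr16:57754738-57754987 on the minus strand and the second at chr4:126286544-126286792 on the plus strand, each 5′ to 3′ and ending just before the annotated exon. Capitals mark the GC box GGGCGG and the SMAD motif CAGACA on either strand.
Col8a1: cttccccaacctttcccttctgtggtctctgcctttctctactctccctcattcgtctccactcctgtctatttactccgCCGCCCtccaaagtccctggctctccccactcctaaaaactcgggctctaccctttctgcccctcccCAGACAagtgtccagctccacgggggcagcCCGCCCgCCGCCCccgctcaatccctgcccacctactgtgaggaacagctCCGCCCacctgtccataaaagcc
Col8a2: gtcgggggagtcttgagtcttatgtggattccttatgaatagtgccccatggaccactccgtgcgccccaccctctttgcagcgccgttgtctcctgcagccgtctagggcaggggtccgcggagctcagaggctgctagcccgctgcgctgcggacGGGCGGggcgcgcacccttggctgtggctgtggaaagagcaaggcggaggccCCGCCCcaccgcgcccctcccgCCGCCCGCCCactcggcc
Upstream windows were held for 8 of the 10 members, and Col12a1 and Col14a1 had no entry. Both collagen VIII windows held 4 GC boxes, of which a pair overlap in Col8a2, and 32.7% of the 32851 windows of 250 bases hold at least 1. The Col8a1 window also held 1 CAGACA, a motif found in 17.1% of all windows, and the Col8a2 window held none. Neither window held TATAAA (12.4% of all windows), CCAAT (33.8%) or the AP-1 motif TGANTCA (6.75%). These matches are letters in a window and say nothing on binding.

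In saline skin the members differed widely in level. Per kilobase of exon, the median over the 10 saline mice was 1261 normalized counts for Col6a1, 547 for Col6a2, 389 for Col16a1, 126 for Col14a1, 123 for Col6a3, 65.7 for Col8a2, 10.5 for Col8a1, 2.64 for Col6a6, 0.864 for Col12a1 and 0.614 for Col6a5. The drops from Col16a1 to Col14a1, from Col8a2 to Col8a1 and from Col8a1 to Col6a6 were larger than the spread between mice, and every other pair of neighbours in this order overlapped. Col6a1 stood at the 96.8th percentile of the genes tested by level per kilobase and Col6a5 at the 1.49th. Col6a5, Col6a6 and Col12a1 therefore rest on few reads: Col6a5 had 3 or fewer reads in 4 of 10 saline mice and Col6a6 in 1 of 10, and Col12a1 had 5 to 49 reads.

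**Figure D1:**
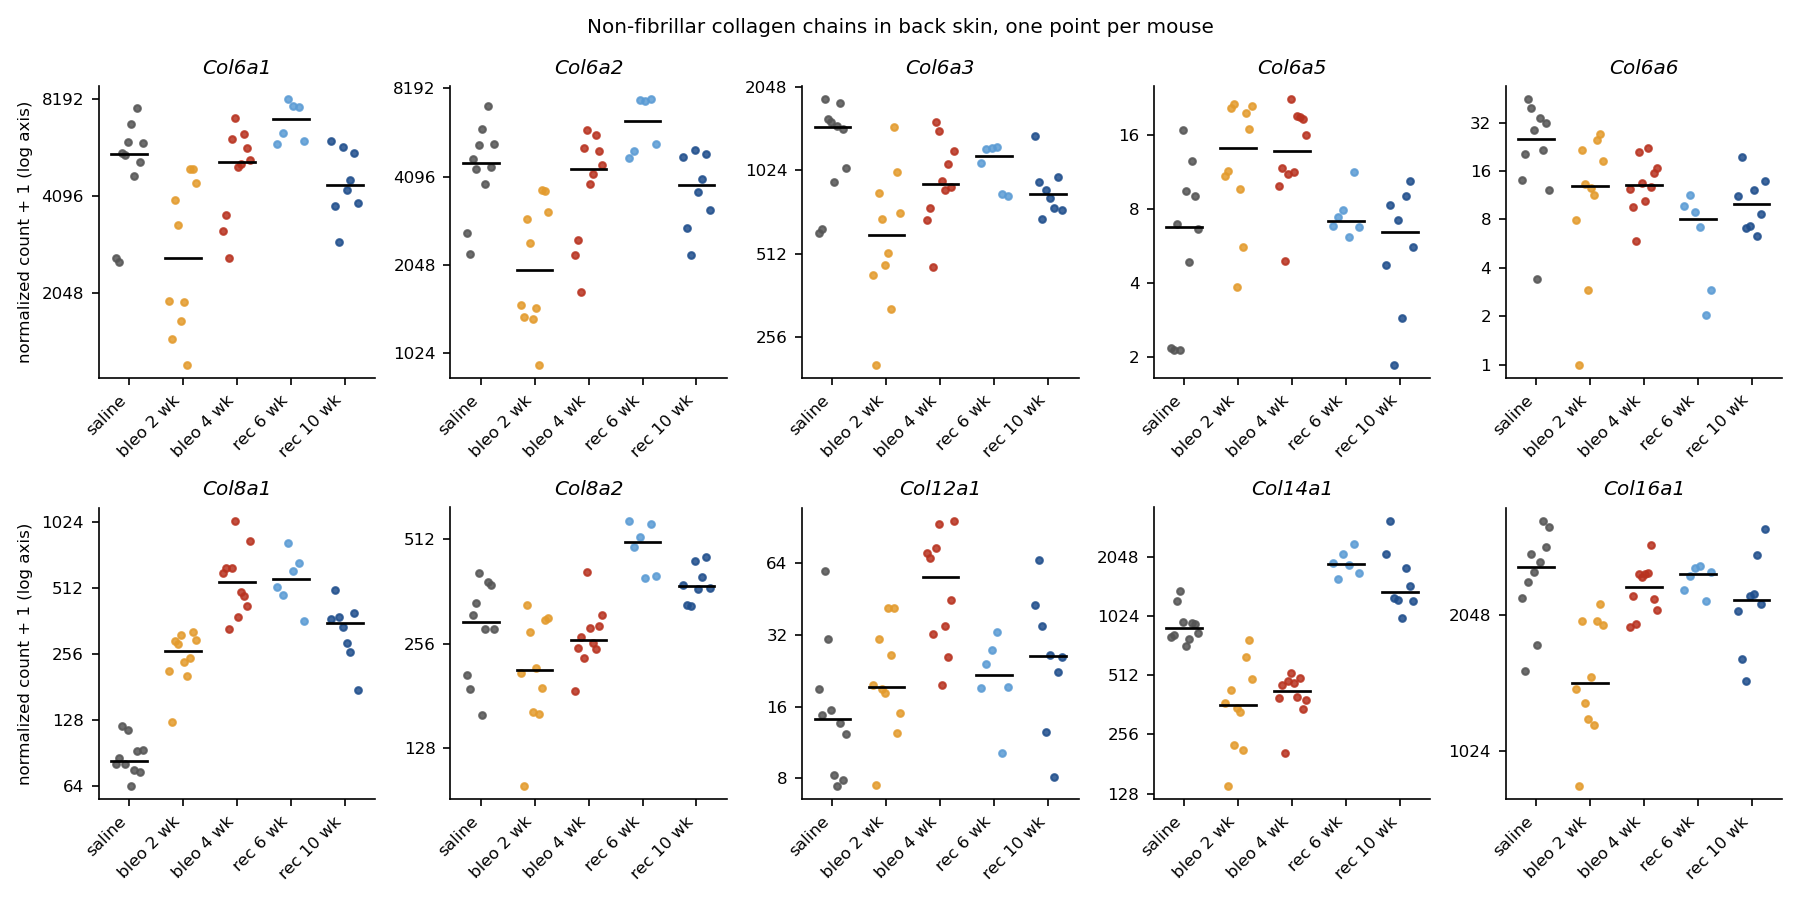
Normalized count + 1 on a log axis for each of the 10 chains, with one point per mouse and a bar at the median of each group (saline n = 10, bleomycin 2 weeks n = 10, bleomycin 4 weeks n = 10, recovery 6 weeks n = 6, recovery 10 weeks n = 8). Col8a1 lies above every saline mouse in all 4 other groups, whereas Col14a1 is low in both bleomycin groups and high in both recovery groups.

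The first question was which of these chains differ from saline at each time. At 2 weeks of bleomycin, 2 members rose (Col8a1 and Col6a5) and 5 fell (Col14a1, Col6a2, Col6a3, Col6a1 and Col16a1), while 16.7% of all genes tested were DEG, 9.3% higher and 7.43% lower. At 4 weeks, 3 rose (Col8a1, Col12a1 and Col6a5) and 1 fell (Col14a1), and the background was 17.9% of genes, 10.5% higher and 7.37% lower. At 6 weeks of recovery, 3 were higher than in saline (Col8a1, Col14a1 and Col8a2) and 1 was lower (Col6a6), against 5.04% of genes in all, 3.33% higher and 1.71% lower. At 10 weeks of recovery, Col8a1 and Col14a1 were higher and none was lower, against 3.05% of genes, 2.05% higher and 0.998% lower. These 4 comparisons share the saline mice. In whole skin, fewer cells of a type and less RNA per cell cannot be told apart. All 10 members were DEG in at least 1 of the 4 comparisons, as were 24.1% of all genes tested. The median log2 fold change of the 10 members was -0.82 and -0.08 after 2 and 4 weeks of bleomycin, and 0.47 and -0.11 after 6 and 10 weeks of recovery, where the median over all genes tested was close to 0 each time.

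**Figure D2:**
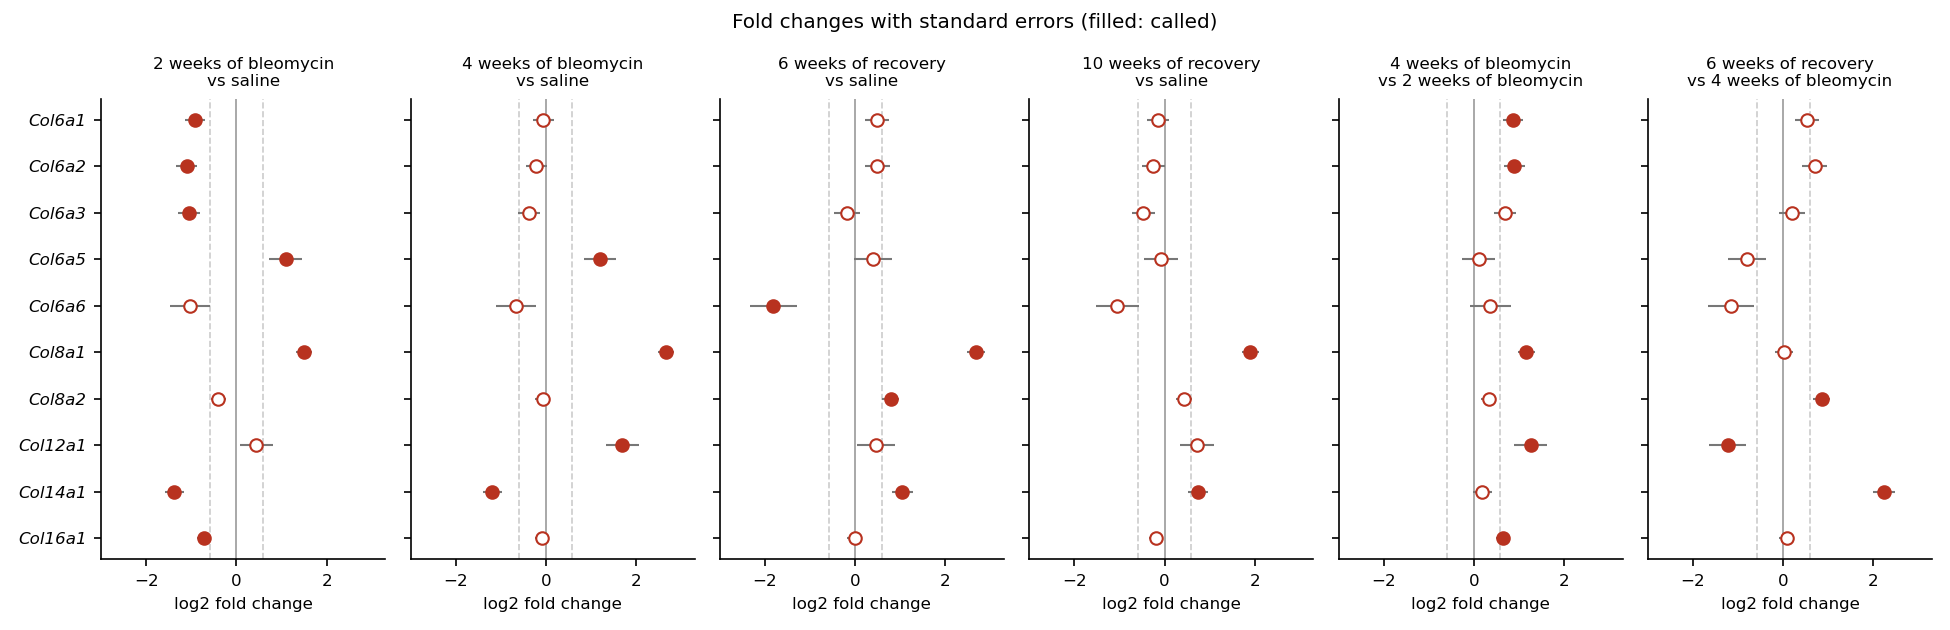
Log2 fold change of each chain (points) with its standard error (bars) in 6 comparisons; filled points are DEG and dashed lines mark a fold change of 1.5. At 2 weeks of bleomycin Col6a1, Col6a2, Col6a3, Col14a1 and Col16a1 lie to the left and Col8a1 and Col6a5 to the right, and Col8a1 stays to the right in all comparisons with saline.

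Col8a1, which encodes the α1 chain of collagen VIII and lies on chromosome 16 (57624258 to 57754737, minus strand, build GRCm38), gave the largest rise of the 10 members in all 4 comparisons with saline. Its normalized count was 63.0, 82.2 and 120 (lowest, median and highest) in saline, and 125, 264 and 323 at 2 weeks of bleomycin. It was 331, 544 and 1036 at 4 weeks, then 363, 562 and 823 at 6 weeks of recovery and 175, 353 and 502 at 10 weeks. Every mouse of the other 4 groups lay above the highest saline mouse. Over saline, the log2 fold change was 1.499 ± 0.18 (SE, adjusted p = 6.16e-09) at 2 weeks and 2.67 ± 0.18 (adjusted p = 5.59e-16) at 4 weeks, which is 2.83-fold and 6.35-fold. In recovery it was 2.68 ± 0.21 (adjusted p = 1.21e-12) at 6 weeks and 1.90 ± 0.19 (adjusted p = 3.28e-09) at 10 weeks. Of all genes tested, 3.44%, 4.31%, 1.41% and 0.282% lay above saline without overlap at these 4 times. No member lay wholly below saline in either recovery group, where 0.54% and 0.147% of genes did. Of the difference reached at 4 weeks on the log2 scale, 101% was left at 6 weeks of recovery and 71.3% at 10 weeks.

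Col8a2, the α2 chain of the same collagen on chromosome 4 (126286793 to 126314330, plus strand), did not pass the test in either bleomycin group. It had a lowest, median and highest normalized count of 159, 295 and 408 in saline, 98.8, 213 and 329 at 2 weeks and 186, 261 and 410 at 4 weeks. The saline and bleomycin groups overlapped broadly, and the log2 fold changes of -0.40 ± 0.17 (adjusted p = 0.0535) and -0.07 ± 0.17 (adjusted p = 0.77) did not pass the test. At 6 weeks of recovery it stood at 395, 500 and 575 and was higher than in saline by 0.78 ± 0.19 (adjusted p = 0.00646), with 4 of 6 mice above every saline mouse. At 10 weeks, with 327, 373 and 453, the log2 fold change of 0.44 ± 0.18 did not pass (adjusted p = 0.137). The log2 ratio of Col8a2 to Col8a1 within a mouse measured the divergence directly: 1.70 ± 0.40 (SD, n = 10) in saline, then -0.21 ± 0.31 (n = 10) and -1.04 ± 0.48 (n = 10) in the 2-week and 4-week bleomycin groups. In the recovery groups it was -0.20 ± 0.37 (n = 6) and 0.23 ± 0.51 (n = 8). Every mouse of the other 4 groups lay below every saline mouse, and the two-sided permutation tests gave adjusted p values from 0.000225 to 0.000937 over the 45 ratio tests. They were exact tests for both recovery groups. Each p was the smallest its test could give at that group size or number of resamples, so these values do not rank the groups.

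Col14a1, the collagen XIV chain, which can bind the fibril proteoglycan decorin, is on chromosome 15 (55307750 to 55520803, plus strand) and first fell, then rose. Its lowest, median and highest normalized counts were 716, 885 and 1362 in saline, 139, 359 and 771 at 2 weeks, and 204, 425 and 522 at 4 weeks. At 2 weeks 9 of 10 mice lay below every saline mouse, and at 4 weeks all 10 did. Groups wholly below saline were seen in 1.33% and 2.21% of genes tested at these times. Its log2 fold change was -1.38 ± 0.21 (adjusted p = 8.73e-07) at 2 weeks and -1.19 ± 0.21 (adjusted p = 1.23e-05) at 4 weeks, which is 2.60-fold and 2.28-fold lower. After 6 weeks of recovery it had reached 1573, 1880 and 2377, above every saline mouse in all 6 mice, with a log2 fold change of 1.05 ± 0.24 (adjusted p = 0.00397). At 10 weeks it was 994, 1355 and 3115, which overlaps saline, and 4 of 8 mice were above every saline mouse. The log2 fold change of 0.75 ± 0.22 passed the test there (adjusted p = 0.0348). The adjusted p rose above the threshold when saline mouse 6 (0.0630) or 7 (0.0504) or recovery mouse 1 (0.0682), 2 (0.102), 6 (0.0571) or 7 (0.0549) was left out, with a range of 0.0152 to 0.102 over all 44 omissions. On the opposite strand 3 annotated genes overlap Col14a1, 1 overlaps Col12a1 and 1 overlaps Col6a6, on the same strand 1 overlaps Col6a3, and the strand setting of the counting is not given in the sources used here.

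Col12a1, the chain of the related collagen XII on chromosome 9 (79598991 to 79718831, minus strand), rose at 4 weeks of bleomycin. In saline it gave only 6.44, 13.2 and 58.1 normalized counts (lowest, median and highest), the highest in mouse 3, and it gave 6.50, 18.4 and 40.3 at 2 weeks. It gave 18.8, 54.9 and 95.2 at 4 weeks, 9.23, 20.8 and 31.9 at 6 weeks of recovery, and 7.09, 25.1 and 64.8 at 10 weeks. The group ranges overlapped with saline at every time. The log2 fold change of 1.70 ± 0.36 at 4 weeks passed (adjusted p = 0.000194), with 10 of 10 mice above the saline median, and 0.44 ± 0.36 at 2 weeks did not (adjusted p = 0.362). At 6 and 10 weeks of recovery it was 0.47 ± 0.42 (adjusted p = 0.522) and 0.72 ± 0.38 (adjusted p = 0.304). Within a mouse, the log2 ratio of Col14a1 to Col12a1 was 5.92 ± 0.73 (SD, n = 10) in saline, 4.11 ± 0.89 (n = 10) at 2 weeks and 3.04 ± 0.82 (n = 10) at 4 weeks (permutation test, adjusted p = 0.00118 and 0.000225). It was 6.51 ± 0.73 (n = 6) and 5.95 ± 0.88 (n = 8) in recovery, neither of which passed the exact permutation test against saline (adjusted p = 0.197 and 0.945).

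**Figure D3:**
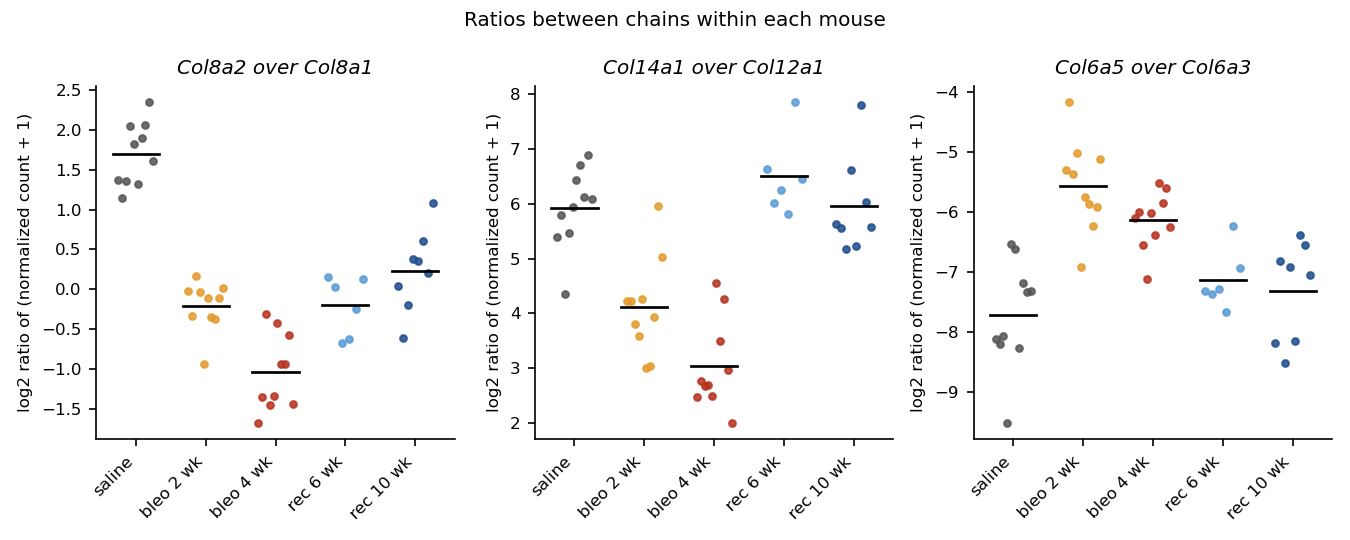
Log2 ratio of normalized counts + 1 between chains in each mouse, for Col8a2 over Col8a1, Col14a1 over Col12a1 and Col6a5 over Col6a3 (points are mice, bars are group means). Col8a2 over Col8a1 falls from 1.70 in saline to -1.04 at 4 weeks of bleomycin and stays below every saline mouse in recovery, and Col14a1 over Col12a1 returns to 6.51 at 6 weeks of recovery.

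Col16a1, the collagen XVI chain on chromosome 4 (130047840 to 130099283, plus strand), passed the test against saline at 2 weeks and at no other time. It had 1539, 2627 and 3320 normalized counts in saline (lowest, median and highest) and 856, 1451 and 2172 at 2 weeks, where 6 of 10 mice were below every saline mouse. The log2 fold change was -0.73 ± 0.14 (adjusted p = 5.16e-05). At 4 weeks (1934, 2370 and 2939), 6 weeks of recovery (2204, 2524 and 2638) and 10 weeks (1465, 2215 and 3191) the groups overlapped saline, with log2 fold changes between -0.19 and -0.01 that did not pass.

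The collagen VI chains Col6a1 and Col6a2 lie 85161 bases apart on the minus strand of chromosome 10 (76708792 to 76726168 and 76595762 to 76623630), and their products join in one monomer. Col6a1 gave 2558, 5524 and 7656 normalized counts in saline (lowest, median and highest), 1227, 2629 and 4968 at 2 weeks, and 2630, 5208 and 7163 at 4 weeks. It gave 5937, 7065 and 8160 at 6 weeks of recovery and 2951, 4414 and 6064 at 10 weeks. Within a group of mice the level of Col6a1 ranged up to 4.05-fold, at 2 weeks of bleomycin, and the ranges of all groups overlapped with saline. The log2 fold change at 2 weeks was -0.92 ± 0.23 (adjusted p = 0.00134), with 10 of 10 mice below the saline median, and those at the other times did not pass: -0.05 ± 0.23 at 4 weeks, 0.48 ± 0.26 at 6 weeks of recovery (adjusted p = 0.257) and -0.15 ± 0.24 at 10 weeks. Col6a2 was similar, with 2232, 4557 and 7113 normalized counts in saline (lowest, median and highest) and 938, 1964 and 3680 in the 2-week group, and fell by 1.11 on the log2 scale at 2 weeks (SE 0.24, adjusted p = 0.000253). It had 1657, 4339 and 5888 in the 4-week group, and 4738, 6348 and 7504, then 2215, 3820 and 5050 in recovery. Col6a2 overlapped saline in every group. Within a mouse, the log2 ratio of Col6a2 to Col6a1 was -0.20 ± 0.10 (SD, n = 10) in saline and lower at 2 weeks (-0.39 ± 0.11, n = 10, permutation test, adjusted p = 0.0036) and at 4 weeks (-0.35 ± 0.16, n = 10, adjusted p = 0.0326). The 4-week difference no longer passed when saline mouse 1 and bleomycin 2-week mouse 2 were left out (adjusted p = 0.0561) or when medians were compared (0.0794).

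Col6a3, the long chain of the usual monomer on chromosome 1 (90765923 to 90843971, minus strand), fell at 2 weeks as well. Its normalized counts were 608, 1467 and 1849 in saline, 203, 598 and 1467 at 2 weeks, 457, 912 and 1531 at 4 weeks, 828, 1154 and 1243 at 6 weeks of recovery and 684, 841 and 1361 at 10 weeks. The groups overlapped, with 5 of 10 mice at 2 weeks below every saline mouse, and the log2 fold change was -1.06 ± 0.24 (adjusted p = 0.000597) at 2 weeks. It did not pass at 4 weeks (-0.38 ± 0.24, adjusted p = 0.239), at 6 weeks of recovery (-0.18 ± 0.28) or at 10 weeks (-0.47 ± 0.26, adjusted p = 0.335). The log2 ratio of Col6a3 to Col6a1 was -2.05 ± 0.39 (SD, n = 10) in saline and lower at 6 weeks of recovery (-2.71 ± 0.30, n = 6, exact permutation test, adjusted p = 0.0124), although it no longer passed when medians were compared (adjusted p = 0.0622).

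Col6a5 and Col6a6, the alternatives to Col6a3, are neighbours on the minus strand of chromosome 9, 27917 bases apart (105856078 to 105960643 and 105687809 to 105828160). Col6a5 rose with bleomycin, and Col6a6 was lower than in saline at 6 weeks of recovery. Col6a5 was at 1.14, 5.78 and 15.7 normalized counts in saline, 2.87, 13.2 and 20.2 at 2 weeks, and 3.91, 12.8 and 21.2 at 4 weeks. It rose by a log2 fold change of 1.09 ± 0.36 (adjusted p = 0.0154) at 2 weeks, where 8 of 10 mice were above the saline median, and of 1.20 ± 0.36 (adjusted p = 0.00759) at 4 weeks, where 9 of 10 were. The groups overlapped at both times, and the 2-week rise did not pass when only the saline and 2-week groups were fitted (adjusted p = 0.0533, range 0.0135 to 0.0533 over the settings tried). In recovery it was at 5.14, 6.12 and 10.3, then at 0.871, 5.42 and 9.36, and its log2 fold changes of 0.39 ± 0.42 and -0.08 ± 0.38 did not pass. Set against Col6a3 in the same mouse, the log2 ratio was -7.71 ± 0.90 (SD, n = 10) in saline, -5.56 ± 0.75 (n = 10) at 2 weeks and -6.13 ± 0.47 (n = 10) at 4 weeks (permutation test, adjusted p = 0.000386 and 0.000343). In recovery it was -7.13 ± 0.50 (n = 6) and -7.32 ± 0.83 (n = 8), and neither passed the exact permutation test against saline (adjusted p = 0.204 and 0.415).

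Col6a6 had 2.42, 24.2 and 43.8 normalized counts in saline (lowest, median and highest), 0, 11.9 and 26.1 at 2 weeks, and 4.89, 12.1 and 21.3 at 4 weeks. It had 1.03, 7.04 and 10.4 at 6 weeks of recovery and 5.32, 8.93 and 18.6 at 10 weeks, and the groups overlapped throughout. The log2 fold change was -1.81 ± 0.52 at 6 weeks of recovery (adjusted p = 0.02), and it did not pass without recovery mouse 5 (adjusted p = 0.0999) or 6 (0.0605), in a range of 0.00402 to 0.0999 over the 44 omissions. At 2 weeks the log2 fold change of -1.03 ± 0.45 missed the threshold (adjusted p = 0.068), and it passed without saline mouse 6 (0.0123) or bleomycin mouse 3 (0.0465), 8 (0.0395) or 9 (0.0370), in a range of 0.0123 to 0.186. At 4 weeks it was -0.66 ± 0.45 (adjusted p = 0.257), where DESeq2 on the recovered reads passed (0.0458, range 0.0458 to 0.420). At 10 weeks of recovery it was -1.04 ± 0.47 (adjusted p = 0.205), where edgeR (adjusted p = 0.0467) and DESeq2 (0.022) on the recovered reads passed, in a range of 0.022 to 0.394 over the settings tried. The log2 ratio of Col6a6 to Col6a3 was lower than in saline by 1.63 at 6 weeks of recovery (exact permutation test, n = 6 and 10, adjusted p = 0.0112, and 0.0622 when medians were compared), and all 6 mice lay below every 4-week mouse (exact permutation test, adjusted p = 0.000937). Between 2 and 37 reads of Col6a6 were counted per saline mouse and 1 to 13 per mouse at 6 weeks of recovery. Recovery mice 5 and 6, on which that call depends, had 1 and 2 reads. This depth limits the values of Col6a6, as does the 1 annotated gene that overlaps it on the opposite strand, since the strand setting is not known.

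The bleomycin time points were compared with each other to see what moved between 2 and 4 weeks. Of the 10 members 5 were higher at 4 weeks (Col12a1, Col8a1, Col6a2, Col6a1 and Col16a1) and none lower, while 2.35% of the genes tested were DEG, 1.49% higher and 0.863% lower. Col8a1 did so without overlap, with the lowest 4-week mouse at 331 above the highest 2-week mouse at 323 (log2 fold change 1.17 ± 0.18, adjusted p = 0.000158), as 0.106% of genes did, while no member and 0.0763% of genes were lower without overlap. Col6a1 was higher by 0.87 ± 0.23 (adjusted p = 0.0185) and Col6a2 by 0.90 ± 0.24 (adjusted p = 0.0193), with 7 of 10 mice at 4 weeks above every 2-week mouse. When only these groups were fitted, both missed the threshold (adjusted p = 0.0661 and 0.0657), the highest values over the settings tried, which began at 0.00835 and 0.00625. Col12a1 was higher by 1.26 ± 0.36 (adjusted p = 0.0298), a result that was lost without bleomycin 2-week mouse 2 (adjusted p = 0.0657), 4-week mouse 5 (0.0629) or 4-week mouse 10 (0.0604) in a range of 0.0181 to 0.0657. Col16a1 was higher by 0.64 ± 0.14 (adjusted p = 0.00460) and fell to 0.55, under the fold change threshold, without bleomycin 2-week mouse 2. Col6a3 was at 0.68 ± 0.24 (adjusted p = 0.089), and passed without 2-week mouse 8 (0.0259) or 9 (0.0495) or 4-week mouse 3 (0.0447), in a range of 0.0259 to 0.187. Col14a1 stayed low, with a log2 fold change of 0.19 ± 0.21 (adjusted p = 0.663).

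Between 4 weeks of bleomycin and 6 weeks of recovery, 2 members rose (Col14a1 and Col8a2) and 1 fell (Col12a1), while 11.9% of the genes tested were DEG, 4.8% higher and 7.14% lower. Col14a1 rose by 2.24 ± 0.24 on the log2 scale (adjusted p = 1.24e-09), that is 4.73-fold, and the lowest recovery mouse at 1573 was above the highest 4-week mouse at 522. Genes that rose without overlap were 4.44% of those tested, and 5.77% fell without overlap, none of them a member. Col8a2 rose by 0.86 ± 0.19 (adjusted p = 0.000756), with 4 of 6 mice above every 4-week mouse. Col12a1 fell by 1.23 on the log2 scale (SE 0.42, adjusted p = 0.0251), and the call was lost without recovery mouse 5 (adjusted p = 0.0903, range 0.0119 to 0.0903). Col8a1 was at 0.02 ± 0.21 (adjusted p = 0.969), a difference smaller than its standard error. Col6a2 (0.70 ± 0.28, adjusted p = 0.0574) and Col6a1 (0.53 ± 0.26, adjusted p = 0.141) did not pass, and the call of Col6a2 depended on the setting. It passed when only these groups were fitted (adjusted p = 0.0330) and without both saline mouse 1 and bleomycin 2-week mouse 2 (0.0442), in a range of 0.00731 to 0.0969 over the settings tried. It also passed when saline mouse 2, bleomycin 2-week mouse 7 or bleomycin 4-week mouse 4, 5 or 8 was left out (adjusted p between 0.0389 and 0.0492, and up to 0.122 over all omissions). The log2 ratio of Col14a1 to Col12a1 rose by 3.47 between these groups, and all 6 recovery mice were above every 4-week mouse (exact permutation test, adjusted p = 0.000937).

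Between 6 and 10 weeks of recovery no member passed limma's test, and edgeR and DESeq2 on the recovered reads called none either, while 0.088% of the genes tested were DEG, 0.0176% higher and 0.0704% lower. At an unadjusted p below 0.05, 3 of the 10 members and 2045 of the 17037 genes differed. The largest of the 3 was Col8a1, at -0.78 ± 0.22 (adjusted p = 0.152), and the others were Col6a2 at -0.74 ± 0.29 (adjusted p = 0.321) and Col6a1 at -0.63 ± 0.28 (adjusted p = 0.362), all lower at 10 weeks.

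Members were also set against Col1a1, the main chain of the dermal fibril, within each mouse. Col1a1 itself had a log2 fold change of -0.71 and 0.30 against saline in the bleomycin groups (adjusted p = 0.0148 and 0.333), and of 0.53 and -0.72 in the recovery groups (adjusted p = 0.220 and 0.0754). The log2 ratio of Col14a1 to Col1a1 was -5.08 ± 0.54 (SD, n = 10) in saline, -5.74 ± 0.22 (n = 10) at 2 weeks and -6.57 ± 0.30 (n = 10) at 4 weeks, and all 10 mice at 4 weeks were below every saline mouse (permutation test, adjusted p = 0.00768 and 0.000225). At 10 weeks of recovery it was -3.60 ± 0.76 (n = 8), with 7 of 8 mice above every saline mouse (exact permutation test, adjusted p = 0.000514), and at 6 weeks -4.55 ± 0.34 (n = 6, adjusted p = 0.0674) did not pass. The ratio of Col6a1 to Col1a1 was higher than in saline at 10 weeks of recovery by 0.57 (exact permutation test, n = 8 and 10, adjusted p = 0.0172) and did not pass at the other times (adjusted p from 0.0929 to 0.885), although it was lower at 4 weeks once saline mouse 1 and bleomycin 2-week mouse 2 were left out (-0.44, adjusted p = 0.0379). The ratio of Col12a1 to Col1a1 was higher than in saline by 1.15 at 2 weeks, 1.40 at 4 weeks and 1.45 at 10 weeks of recovery (permutation tests, adjusted p = 0.0364, 0.018 and 0.0378), and at 6 weeks of recovery the difference was -0.06 (adjusted p = 0.945). The 2-week and 10-week differences no longer passed when medians were compared (adjusted p = 0.0502 in both). Of the 45 ratio tests, 26 passed.

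Shares were taken of the normalized counts per kilobase of exon, summed over the 37 collagen genes tested. The collagen VI chains had a median share of 9.14% in saline, and of 7.17% and 7.25% in the bleomycin groups. It was 9.03% and 10.3% in the recovery groups. Collagen VIII had 0.411%, 0.616%, 0.59%, 0.671% and 0.822% in the same order, and Col12a1, Col14a1 and Col16a1 together 2.66%, 2.12%, 1.81%, 2.41% and 3.79%. Collagen VIII ranged from 0.247% to 0.523% in saline, and every mouse at 6 weeks (0.525% to 0.886%) and 10 weeks (0.666% to 1.08%) of recovery lay above that range. The gap at 6 weeks was very narrow. The ranges of collagen VI and of the 3 fibril-associated chains overlapped with saline in every group. These shares were not tested, and they also depend on the other collagen genes in the sum. The summed normalized count of 6 fibrillar chains had a median of 118824 in saline and of 70644 and 128077 in the bleomycin groups. It was 171328 at 6 weeks and 78502 at 10 weeks of recovery. Col8a1 and Col8a2 themselves had lower medians at 10 weeks than at 6 weeks of recovery (353 against 562, and 373 against 500).

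Other genes of the same matrix were read from lists, by their counts. Over all genes tested, 9.3%, 10.5%, 3.33% and 2.05% were higher than in saline at the 4 times. The shares that were lower were 7.43%, 7.37%, 1.71% and 0.998%. A count of 1 gene in a list at 2 or 4 weeks is therefore close to these shares. Of 18 further non-fibrillar chains, 17 were found and 11 tested, and at 2 weeks 1 was higher and 2 lower, at 4 weeks 4 were higher, and in recovery 1 was higher at each time. Col28a1, a von Willebrand factor A domain chain near nerve, was the largest rise each time, with log2 fold changes of 1.01, 1.72, 0.99 and 0.76 in order of time (adjusted p = 7.54e-06, 5.69e-11, 0.00103 and 0.00803). Of 6 fibrillar chains 4 fell at 2 weeks, led by Col5a1 at -0.97 (adjusted p = 0.000128), and none passed at the other times against saline. Among 12 collagen receptors, 1 was higher and 3 lower at 2 weeks, and 2 higher and 1 lower at 4 weeks, then 1 higher at 6 weeks of recovery (Lair1, 0.95, adjusted p = 0.00616) and none at 10 weeks. The inhibitory immune receptor Lair1 rose by 3.21 (adjusted p = 3.37e-17) and 2.92 (adjusted p = 7.09e-16), whereas Itga11, the fibroblast integrin chain that binds collagen I, fell by 1.83 on the log2 scale at 2 weeks (adjusted p = 2.74e-09). Of 9 partners that bind these collagens, 3 were lower at 2 weeks, 1 higher and 2 lower at 4 weeks, and 4 higher at 6 weeks of recovery, with none at 10 weeks. Tnxb, which encodes tenascin-X, a partner of collagens XII and XIV, was lower by a log2 fold change of -1.36 (adjusted p = 9.48e-08) and -1.12 (adjusted p = 4.33e-06) at 2 and 4 weeks, and Tnc was higher at 4 weeks by 0.81 (adjusted p = 0.0127). Fmod, which binds fibrils, was the largest rise at 6 weeks of recovery (1.08, adjusted p = 0.0278).

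Some markers of other cells differed between these groups, and their part in the results above was not tested. Their counts are to be read beside the same shares of all genes, 9.3% higher and 7.43% lower at 2 weeks and 10.5% and 7.37% at 4 weeks. Fibroblast markers other than collagens fell, 6 of 8 lower at 2 weeks and 6 of 8 at 4 weeks, with Pi16 the largest fall (-2.67 and -2.99), and their summed normalized count had a median of 21556 in saline (11805 to 24964), 9403 at 2 weeks (6129 to 12676) and 9113 at 4 weeks (8053 to 10749). It was 18946 (17952 to 23736) and 19352 (15989 to 23211) in recovery, where Pdgfra alone stayed lower. Macrophage markers rose, 4 of 6 at both bleomycin times, from a summed median of 13692 in saline (7888 to 21089) to 26229 at 2 weeks (19659 to 37357) and 21568 at 4 weeks (18172 to 33922). All 6 inner root sheath genes of growing hair were lower at 2 and 4 weeks, and none passed in recovery. Their summed median was 39453 in saline (2002 to 209554), 45.3 at 2 weeks (31.8 to 1864) and 56.8 at 4 weeks (27.9 to 4753). The 4-week range overlapped saline. In recovery it was 10934 (99.4 to 100789) at 6 weeks and 90935 (1310 to 170143) at 10 weeks. Schwann cell markers were higher in 1, 5, 5 and 4 of 6 genes at the 4 times, from a summed median of 4843 in saline (2912 to 6970) to 8891 (6344 to 10357) at 6 weeks of recovery. Of 6 endothelial markers 2, 2, 3 and 0 were higher at the 4 times, with none lower. Of 6 mural cell markers 2, 2, 2 and 1 were higher and none lower, with Des the largest rise at 2 and 4 weeks. The median log2 fold change of the mural list was -0.095, 0.43, 0.43 and 0.087 in order of time. Of 6 skeletal muscle markers 1 was higher each time (Ttn) and none lower. That list as a whole did not move clearly, with medians of -0.077, -0.059, 0.22 and 0.29. Of 6 adipocyte markers 3 were lower at 2 weeks and 4 at 4 weeks, led by Lep (-2.43 and -1.68), and none passed in recovery.

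**Figure D4:**
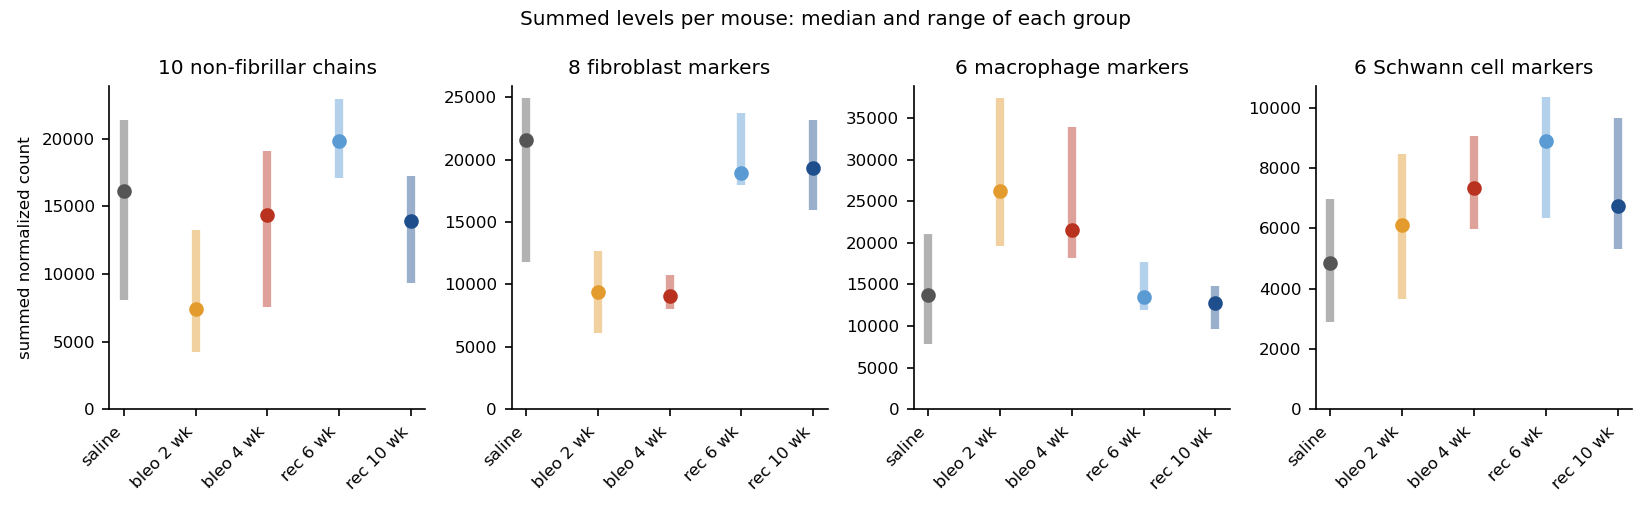
Summed normalized count of the 10 chains and of 3 lists of cell markers in each group, with the median over mice (points) and the lowest and highest mouse (bars). The 10 chains have a median of 16154 in saline, 7402 and 14339 in the bleomycin groups and 19804 and 13872 in the recovery groups, while the 8 fibroblast markers are low at both bleomycin times. The sum is mostly Col6a1, Col6a2 and Col16a1 (saline medians 5524, 4557 and 2627). Low chains such as Col8a1 (82.2) and Col12a1 (13.2) add little to it.

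The members also differed in how alike they were from mouse to mouse, once the group means were taken off. Col6a1 and Col6a2 had a Pearson r of 0.975 over the 44 mice (Spearman's rho 0.976), 0.969 without the 2 mice farthest from the median, and between 0.968 and 0.995 within single groups. Col6a1 and Col6a3 had 0.844, and 0.27 to 0.908 within groups. Col8a1 and Col8a2 had 0.46, with 0.366 without the 2 farthest mice and -0.12 to 0.82 within groups. Col6a5 had 0.735 with Col6a1 and 0.742 with Col6a2. Col12a1 and Col6a1 had 0.001 (-0.32 to 0.13 within groups), where Col12a1 rests on few reads. These are descriptions, since the points share depth, dissection and cell content. The 2 genes most like each member were Fbln2 (0.926) and Fkbp10 (0.918) for Col6a1, Fkbp10 (0.943) and Col5a1 (0.903) for Col6a2, and Nid1 (0.846) and Fn1 (0.843) for Col14a1. For Col8a1 the likeness was weaker, with Mss51 (0.731) and C1qtnf3 (0.716). Col8a2 was most like Gprc5b (0.814) and Anxa11 (0.806), Col16a1 most like Nynrin (0.862) and Capn5 (0.856), and Col6a3 most like Akap2 (0.899) and Creb3l2 (0.894). The low chains gave Lix1l (0.796) and Capn2 (0.764) for Col6a5, Gm47302 (0.828) and Cgnl1 (0.824) for Col6a6, and Ago2 (0.723) and Virma (0.703) for Col12a1.

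Single mice ran low across several members at once. Bleomycin 2-week mouse 2 had the lowest value of its group for 7 of 10 members, bleomycin 4-week mouse 3 for 7 of 10 and 10-week recovery mouse 3 for 6 of 10. At the other end, bleomycin 4-week mouse 5 was highest for 6 of 10. How often these mice were lowest or highest over all genes was not counted, and several members vary together. These counts therefore describe the mice and are not a result about these chains. With saline mouse 1 and bleomycin 2-week mouse 2 left out, no call of a member against saline changed.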

How the data were processed

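RNA was extracted from a part of each back skin biopsy and sequenced as stranded, poly(A)-selected libraries in 44 mice. The authors aligned reads to mm10 with STAR 2.4.0 and deposited counts normalized with DESeq2 1.12.3, so that the deposited values are a normalized count signal per gene and mouse. The counting tool, its strand setting and its annotation are not given in the sources used here. The low values were whole multiples of the value of 1 read, from which reads were recovered with a tolerance of 0.02. That value was close to 1 in bleomycin 2-week mouse 1 (0.990) and in 6-week recovery mouse 3 (0.988). Reads per mouse ranged from 8509094 to 15285577.

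Ensembl identifiers were matched to symbols and positions in GENCODE M21 (build GRCm38, the same assembly as mm10), with 98.9% matched. Genes with a mean above 3 normalized counts (17037) entered a limma-trend fit (limma 3.58.1, R 4.3.3) of log2(normalized count + 1), with the 5 groups in 1 fit and Benjamini-Hochberg adjustment over all genes tested. Fold changes on this scale understate the change of low genes. Two-sided permutation tests compared the ratios between chains, with full enumeration (exact) for groups under 10 mice and 100000 resamples for the rest, adjusted over 45 tests. Before adjustment, the smallest p such a test could give was 2.0e-05 with resampling. It was 0.00025 for 6 against 10 mice and 4.57e-05 for 8 against 10. Of the alternatives, edgeR 4.0.16 and DESeq2 1.42.0 were run on the recovered reads, and the others changed the pseudocount, filter, threshold, scaling, samples or replicate block. Leaving out each mouse in turn was chosen after seeing the data. Groups and replicate numbers came from the labels. Scripts were tested on simulated data, and sequences were read from GENCODE transcripts and RefSeq.

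The members and lists were chosen with earlier results of these data known. The genes named are the 10 members, Col1a1 as a reference, the gene with the largest passing rise and fall of each list in each comparison with saline, and the 2 genes most alike to each member over the 44 mice. Tchh and Col23a1, each in 1 list, were not analysed here.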

Additional observations from a re-analysis of the deposited data

Results flagged for a closer look

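Each of the 10 members was examined in each of the 5 groups for a mouse far from the rest of its group, by the gap to the nearest mouse over the whole range (Dixon's test). Of the 50 groups tested 3 held such a mouse, and chance alone gives about 1 in 20. Saline mouse 6 had 2.42 normalized counts of Col6a6, where the other saline mice had 11.3 to 43.8. Bleomycin 2-week mouse 2 had 125 normalized counts of Col8a1, where the others had 203 to 323. Bleomycin 4-week mouse 3 had 204 normalized counts of Col14a1, where the others had 345 to 522. The latter 2 mice were also the lowest of their groups for 7 of the 10 members each.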

How the results depend on the processing

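Of the 25 member results that passed in the 7 comparisons, 18 passed under all 12 alternative settings and 20 whichever of the 44 mice was left out. The settings that only lowered the fold change threshold, to log2 0.5 or to none, kept the same fit and could not lose a call. The cause of each change below was not tested.

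The number of members that passed moved as follows. With a pseudocount of 0.1, lower at 6 weeks of recovery was 0 (Col6a6, adjusted p = 0.0620 with limma). With no filter, higher at 10 weeks of recovery was 1 (Col14a1, 0.0566). With only the groups compared, higher at 2 weeks was 1 (Col6a5, 0.0533), higher at 4 against 2 weeks 3, and at 6 weeks of recovery against 4 weeks of bleomycin 3 were higher (Col6a2 added, 0.0330) and 3 lower. With 42 mice (without saline mouse 1 and bleomycin 2-week mouse 2) higher at 4 against 2 weeks was 3, and at 6 weeks of recovery against 4 weeks 3 were higher (Col6a2 added, 0.0442) and 2 lower. With edgeR, lower at 10 weeks of recovery was 1. With DESeq2 it was also 1, lower at 4 weeks was 2, and lower at 6 weeks of recovery against 4 weeks was 2.

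The replicate numbers did not pair the mice: over 78 pairs with the same number the median correlation of deviations was -0.00, 18 pairs were above 0.1, and 6 mice correlated best with their own number. With the replicate block, higher at 6 weeks of recovery against 4 weeks was 4, with Col6a1 (0.70, adjusted p = 0.0311 with limma) and Col6a2 (0.88, 0.00731) added.

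Log2 fold changes that turned sign were small. With the replicate block, Col16a1 at 6 weeks of recovery was 0.13, Col6a5 at 10 weeks 0.042 and Col8a1 at 6 weeks of recovery against 4 weeks -6.86e-05. The last was -0.031 with edgeR and -0.020 with DESeq2. Col6a6 at 4 against 2 weeks was -0.0040 with 42 mice, -0.0012 with edgeR and -0.0072 with DESeq2.

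Among the log2 ratios, Col6a6 to Col6a3 at 2 weeks turned to -0.33 with a pseudocount of 0.1 and -0.050 with medians. Col14a1 to Col12a1 at 10 weeks of recovery turned to -0.011 with a pseudocount of 0.1, -0.031 with 42 mice and -0.42 with medians, and Col12a1 to Col1a1 at 6 weeks of recovery to 0.38 with medians. No longer past the threshold were Col6a2 to Col6a1 at 4 weeks (-0.13 with 42 mice, -0.091 with medians) and, with medians, Col6a3 to Col6a1 (-0.69) and Col6a6 to Col6a3 (-1.80) at 6 weeks of recovery and Col12a1 to Col1a1 at 2 weeks (1.63), 10 weeks of recovery (1.75) and 6 weeks of recovery against 4 weeks (-1.52). Newly past it were Col6a1 to Col1a1 at 4 weeks (-0.44 with 42 mice) and Col6a6 to Col6a3 at 10 weeks of recovery (-1.23 with medians).

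With each mouse left out in turn, the number lower at 2 weeks of bleomycin ranged from 5 to 6, lower at 6 weeks of recovery from 0 to 1, higher at 10 weeks from 1 to 2, higher at 4 against 2 weeks from 3 to 6 and at 6 weeks of recovery against 4 weeks from 2 to 3 higher and from 0 to 2 lower. The other counts did not move. Fold changes that crossed 0 were Col6a1 at 4 weeks (-0.16 to 0.044), Col16a1 at 6 weeks of recovery (-0.085 to 0.038), Col6a5 at 10 weeks (-0.23 to 0.15) and at 4 against 2 weeks (-0.077 to 0.27), Col6a6 at 4 against 2 weeks (-0.00 to 0.53) and Col8a1 at 6 weeks of recovery against 4 weeks (-0.10 to 0.14). Depth limits Col6a5, Col6a6 and Col12a1 most, with 3 or fewer reads in single mice of the first 2.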
